A study of Homo sapiens with 4 samples.

Results

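The genes described here are 44 human genes of sterol and fatty acid synthesis that belong to the programme run by the sterol regulatory element-binding proteins (SREBPs). They were chosen by pathway membership: enzymes of the mevalonate and sterol pathways, the SREBP control proteins, sterol transport genes, and enzymes that make, desaturate, elongate and activate fatty acids. Each gene was read on the probe set that carried its symbol alone and had the highest mean over the 4 arrays, which gave values for 41 of the 44 genes among 18132 genes in all. FDFT1, CYP51A1 and ACSL3 had no probe set annotated with their symbol alone and were not analysed here.

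The RNA was of U87MG, a long-established line of human glioblastoma cells, and was read on human PrimeView arrays, which are 1-colour arrays of short oligonucleotide probes. One group of 2 samples had been transfected with a NeuroD2 expression vector, which makes the neurogenic transcription factor NeuroD2, and the other group of 2 samples with the PCMV control vector. Both groups were grown at 0.2% oxygen and harvested 48 hours after transfection, so every value below is from hypoxic, transfected cells. The labels call the samples of each group biological replicates 1 and 2 without saying how cultures were separated, so p-values measure only the spread between these samples, and they give no share of cells that took up the vector.

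SREBPs are made as precursors in the membrane of the endoplasmic reticulum, where the escort protein SCAP holds them. When membrane sterol is plentiful, INSIG proteins retain the SCAP complex; when it falls, SCAP carries the precursor to the Golgi, where it is cleaved, and the released factor enters the nucleus and activates genes of lipid synthesis. SREBF2 encodes the factor that acts mainly on sterol genes and SREBF1 those that act more on fatty acid genes, and glioblastoma cells are known for active lipid synthesis through this route.

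With the NeuroD2 vector, 9 of the 41 measured genes fell and 0 rose at an adjusted p below 0.05 over all genes by limma. The genes that fell encode the sterol enzymes ACAT2, HMGCS1, IDI1, FDPS, EBP and DHCR7, the acetyl-CoA carboxylase ACACB and the fatty acid desaturases SCD and FADS2. Of all genes, 2.96% were called lower and 1.81% higher, while 22.0% of the measured lipid synthesis genes were called lower. When each array was centred on its median, 452 of all genes were called lower (2.49%) and 437 higher (2.41%), against 536 and 328 without that centring, and 8 of the 41 genes were called lower and 0 higher. The median difference over the 41 genes was -0.24 on the log2 scale, beside 0.00 over all genes. In bulk RNA, fewer cells of one kind and less RNA per cell cannot be told apart.

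The 9 genes that fell lost between 0.46 and 1.17 on the log2 scale, which left them at 72.9% to 44.5% of the control level. Differences were below 0 in 34 of the 41 genes and in 49.9% of all genes. In 26 of the 41 genes the highest NeuroD2 value was below the lowest control value, which is 63.4% of them, and in 3 genes the groups were apart the other way. Of all genes, 26.6% were apart in the lower direction and 24.2% in the higher one. At an unadjusted p below 0.05, 20 of the 41 genes were lower and 0 higher, beside 12.5% and 9.27% of all genes. With an intensity trend in limma's prior, 17 of the 41 genes were called lower and 0 higher (7.13% and 4.21% of all genes), and with genes below the median level left out 15 of 38 and 0 (14.1% and 8.81%). The added calls included SREBF1, INSIG2 and ACSS2 in both of these settings. ACACB was among the genes left out for their level.

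**Figure D1:**
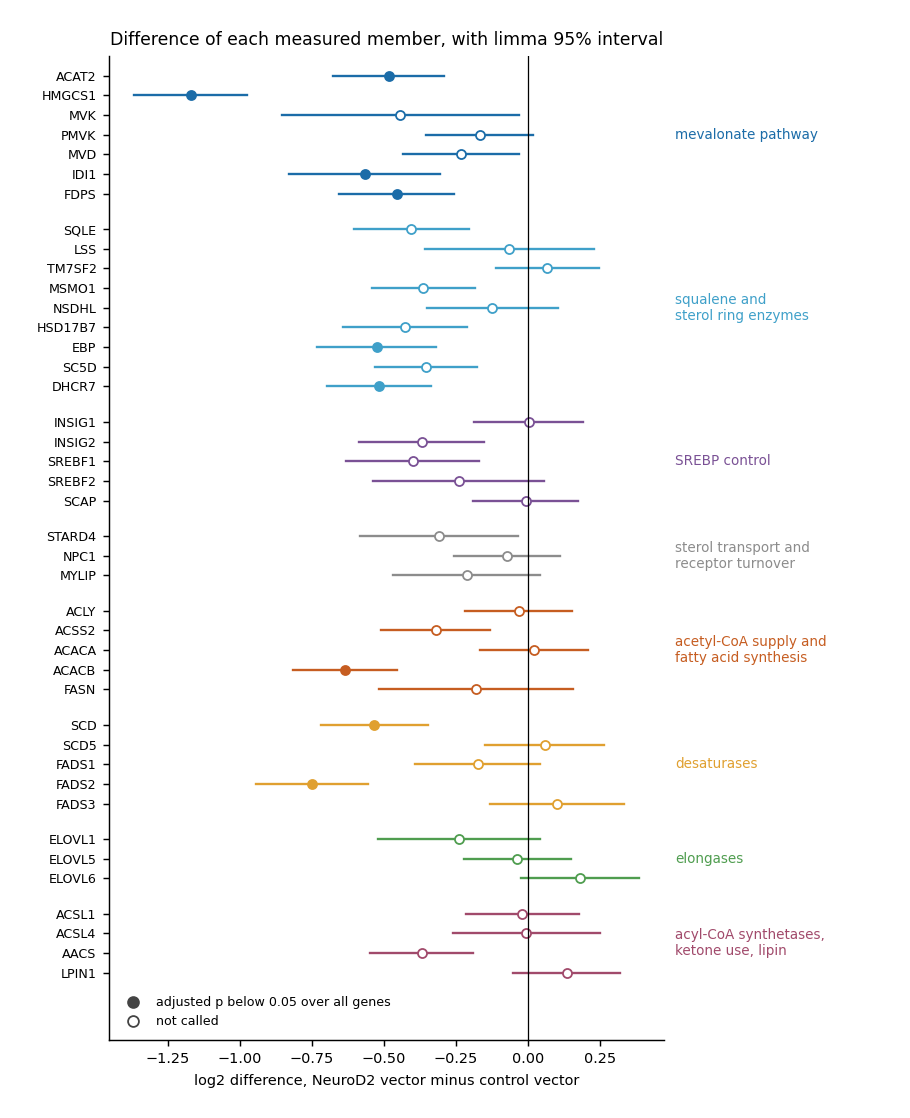
Log2 difference (NeuroD2 vector minus control vector, horizontal axis) of each of the 41 measured genes, grouped by role, with limma's 95% interval as a line; filled points passed an adjusted p of 0.05 over all genes. The 9 filled points all lie left of 0, HMGCS1 furthest at -1.17, and 6 of them are in the mevalonate and sterol enzyme groups.

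These calls rested on all 4 arrays. Leaving out either control array, with the lone control assumed to vary like the NeuroD2 pair, 0 genes of the whole table passed in limma. Adjusted p-values then began at 0.141 (control replicate 1 left out) and 0.133 (control replicate 2 left out). At an unadjusted p below 0.05, 18 of the 41 genes were then lower without control replicate 1 (12.7% of all genes) and 26 without control replicate 2 (13.4% of all genes). With 1 NeuroD2 array left out at a time, 1 gene of the 41, HMGCS1, passed each time, when 0.121% of all genes were called lower and 0.193% higher without NeuroD2 replicate 1, and 0.16% and 0.204% without NeuroD2 replicate 2. In each of these fits 16 of the 41 were lower at an unadjusted p below 0.05, beside 6.9% and 7.32% of all genes. The differences of the 9 genes stayed below 0 in each of these 4 fits. Over the 41 genes the median was -0.16 with control replicate 1 left out and -0.34 with control replicate 2 left out.

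Control replicate 1 stood apart in the spiked-in RNAs and in the control probe sets for 18S ribosomal RNA. The poly-A spikes averaged 7.96 and 8.03 on the NeuroD2 arrays and 6.95 and 7.98 on control replicates 1 and 2 (log2), and each of the 24 poly-A probe sets had its minimum on control replicate 1. The hybridisation spikes averaged 10.10 and 10.13 on the NeuroD2 arrays against 9.56 and 9.90 on the control arrays, a difference of 0.39, or 0.22 without control replicate 1. On the 18S probe set nearest the 3′ end the NeuroD2 arrays had 12.12 and 12.14, against 11.33 and 12.09 on control replicates 1 and 2, and all 3 probe sets of 18S RNA were lowest on control replicate 1. The 6 control probe sets for actin and GAPDH lay between 13.76 and 13.99 on all 4 arrays. The part of these differences in the results was not tested. Across all genes, which are not independent, the NeuroD2 arrays correlated at r = 0.9985 and the control arrays at r = 0.9978.

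The vector's gene was read on 3 probe sets. NEUROD2 had 7.37 and 7.82 in NeuroD2 cells against 5.46 and 5.35 in control cells on the brightest one (log2; difference 2.19, adjusted p = 0.0044 by limma). That probe set carries the suffix s_at, given to probes that can match more than 1 transcript, and the mean of the 3 probe sets differed by 0.64 (adjusted p = 0.013). Without probe sets of the s_at and x_at kinds the NEUROD2 difference was -0.21, and with either control array left out the adjusted p was 0.141 or 0.147. Which probe sets lie in the stretch carried by the vector was not tested. Of the marker genes of a glioblastoma line, VIM averaged 14.14 in NeuroD2 cells and 14.15 in control cells and CD44 averaged 12.85 in NeuroD2 cells and 12.83 in control cells (log2), while the glial markers GFAP, S100B, SOX2 and OLIG2 lay between 4.36 and 7.04 on the 4 arrays. In that list 1 of 8 genes was called, the mesenchymal marker FN1, which fell by 0.63, while 1 was lower and 2 were higher at an unadjusted p below 0.05 and the median was 0.08. The glial markers OLIG2 and GFAP differed by 0.39 and 0.24 (adjusted p = 0.0829 and 0.133). In the neuronal list 1 of 5 was called, SNAP25, which fell by 0.59, with 1 lower and 1 higher at an unadjusted p below 0.05, the higher one being STMN2 (0.21, adjusted p = 0.173). In the leukocyte, endothelial and epithelial lists 0 of 4, 0 of 3 and 0 of 3 were called, with 1, 0 and 1 lower and 1, 0 and 0 higher at an unadjusted p below 0.05. Among all genes, 2.96% were called lower and 1.81% higher. At an unadjusted p below 0.05 by limma these shares were 12.5% and 9.27%. The part of these markers in the results was not tested, and detection calls were not used here.

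The mevalonate pathway builds the isoprenoid units of cholesterol from acetyl-CoA. In all 7 of its genes both NeuroD2 values lay below both control values, as in 26.6% of all genes. By limma's test 4 of the 7 fell and 3 did not pass, when 2.96% of all genes were called lower. The median difference of the 7 was -0.46. HMGCS1, the enzyme that makes HMG-CoA from acetyl-CoA and acetoacetyl-CoA, had 8.28 and 8.40 in NeuroD2 cells against 9.49 and 9.53 in control cells (log2). It fell by 1.17 (95% interval -1.36 to -0.97, adjusted p = 0.0044), so that NeuroD2 cells held 44.5% of the control level. The groups lay far apart against the replicates, which were 0.12 apart in NeuroD2 cells and 0.03 apart in control cells, and its second probe set fell by 0.84 (adjusted p = 0.0172 over all probe sets).

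ACAT2, the thiolase that makes acetoacetyl-CoA one step earlier, had 9.39 and 9.30 in NeuroD2 cells against 9.86 and 9.79 in control cells (difference -0.48, standard error 0.08, adjusted p = 0.033). On both of its other probe sets it also fell, by 0.71 and 0.62 (adjusted p = 0.0183 and 0.0244 over all probe sets). IDI1, which interconverts the isoprenoid building blocks, had 9.72 and 9.79 in NeuroD2 cells against 10.19 and 10.45 in control cells (difference -0.57, standard error 0.11, adjusted p = 0.045). Its 2 control arrays were 0.26 apart, and it did not pass when arrays were centred on their medians (-0.53, adjusted p = 0.055) or when p-values were adjusted over all probe sets (adjusted p = 0.0569), where its second probe set passed (-0.55, adjusted p = 0.0373). FDPS, which joins the units into farnesyl diphosphate, had 9.45 and 9.58 in NeuroD2 cells against 9.98 and 9.97 in control cells (difference -0.46, standard error 0.08, adjusted p = 0.040; 0.054 over all probe sets).

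The 3 mevalonate genes that did not pass encode enzymes of the steps in between. The mevalonate kinase gene MVK differed by -0.44 (adjusted p = 0.202) on its brightest probe set, where control replicates 1 and 2 were 0.52 apart at 8.13 and 7.62, with 7.42 and 7.44 in NeuroD2 cells. The MVK difference there was -0.19 with control replicate 1 left out and -0.70 with control replicate 2 left out, while its second probe set fell by 0.56 (adjusted p = 0.040 over all probe sets). The decarboxylase gene MVD differed by -0.23 (adjusted p = 0.179) and the phosphomevalonate kinase gene PMVK by -0.17 (adjusted p = 0.270).

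Squalene and the sterol ring system are formed by the second group of enzymes, of which 9 of 11 genes were measured. Of these, 2 fell (2.96% of all genes were called lower) and 7 did not pass, with a median difference of -0.36. In 6 of the 9 both NeuroD2 arrays were lower (26.6% of all genes). EBP, the sterol isomerase, had 10.59 and 10.58 in NeuroD2 cells against 11.19 and 11.04 in control cells (difference -0.53, standard error 0.08, adjusted p = 0.033). DHCR7, the reductase of the last step to cholesterol, had 8.50 on both NeuroD2 arrays against 9.05 and 8.99 in control cells (difference -0.52, standard error 0.07, adjusted p = 0.024). NeuroD2 replicates of EBP and of DHCR7 lay within 0.01 of each other, and neither gene's groups overlapped.

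Another 4 genes of this group lay just outside the threshold, together with AACS. These were the squalene epoxidase gene SQLE (-0.41), the sterol methyl oxidase gene MSMO1 (-0.36), the sterol ketone reductase gene HSD17B7 (-0.43) and the desaturase gene SC5D (-0.35). Their adjusted p-values and that of AACS lay between 0.051 and 0.054, and the highest adjusted p among the genes that fell was 0.045. The lanosterol synthase gene LSS (-0.07), the dehydrogenase gene NSDHL (-0.12) and the reductase gene TM7SF2 (0.07) had adjusted p-values of 0.814, 0.502 and 0.668. LSS had 9.14 and 9.15 in NeuroD2 cells, between the 9.37 and 9.05 of the control arrays, and its difference was 0.10 or -0.23 with control replicate 1 or 2 left out. TM7SF2 was slightly higher on both NeuroD2 arrays on that probe set, and 2 of its 5 probe sets were lower.

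Taking both groups of sterol enzymes, 6 of 16 measured genes fell, 10 did not pass and 0 rose, and 15 of the 16 differences were below 0 with a median of -0.42. Of the other 25 measured genes, 3 fell, 22 did not pass and 0 rose, 19 differences were below 0 and the median was -0.18. Beside these counts, 2.96% of all genes were called lower, 1.81% higher, and 49.9% had differences below 0. Whether the groups of genes differ was not tested.

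**Figure D2:**
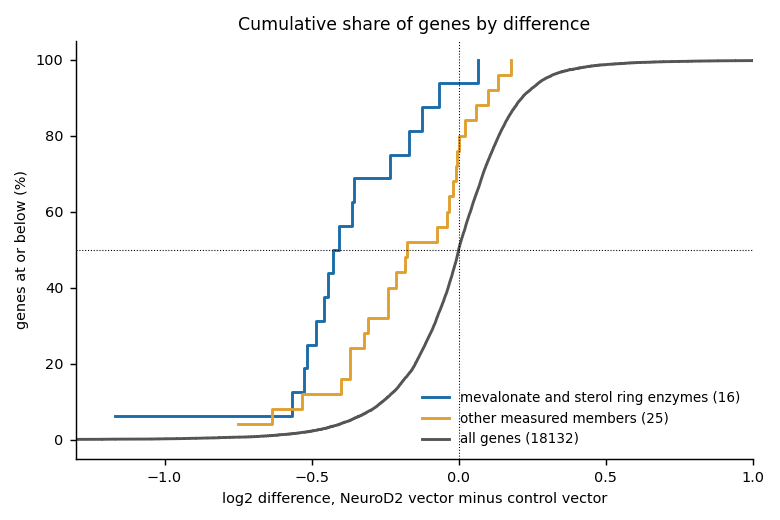
Cumulative share (%) of genes by their log2 difference, NeuroD2 vector minus control vector, for the 16 mevalonate and sterol ring enzymes, the other 25 measured genes and all 18132 genes, some of which lie beyond the axis. The sterol enzyme curve crosses 50% near -0.42, that of the other measured genes at -0.18 and that of all genes at 0.00.

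The control proteins of the programme did not pass the test in any of 5 genes, with differences from -0.40 to 0.00. SREBF1 had 8.55 and 8.61 in NeuroD2 cells against 9.08 and 8.88 in control cells (log2; difference -0.40, 95% interval -0.63 to -0.17, adjusted p = 0.073). SREBF2 had 7.25 and 7.24 in NeuroD2 cells against 7.65 and 7.32 in control cells (difference -0.24, interval -0.54 to 0.06, adjusted p = 0.321). On these brightest probe sets both SREBF genes were lower on both NeuroD2 arrays, as were 26.6% of all genes. The control replicates of SREBF2 lay 0.33 apart there, and its difference was -0.07 without control replicate 1. The groups overlapped on the dimmest probe set of SREBF1 and on the second brightest of SREBF2. With the mean of probe sets SREBF1 differed by -0.29 (adjusted p = 0.177) and SREBF2 by -0.15 (adjusted p = 0.507).

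SCAP, the escort protein, had 9.22 and 9.17 in NeuroD2 cells against 9.23 and 9.18 in control cells (difference -0.01, interval -0.19 to 0.17). INSIG1 had 12.74 and 12.77 in NeuroD2 cells against 12.70 and 12.80 in control cells (difference 0.00, interval -0.19 to 0.19). For both genes the arrays of the 2 groups overlapped, and both intervals hold 0 and end before -0.20. INSIG2, the other retention protein, had 8.77 and 8.63 in NeuroD2 cells against 9.01 and 9.12 in control cells (difference -0.37, interval -0.58 to -0.15, adjusted p = 0.077), and its 3 probe sets differed by -0.39 to -0.30. INSIG1 is itself known as an SREBP target in human cells; its other 2 probe sets differed by -0.22 and -0.06.

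**Figure D3:**
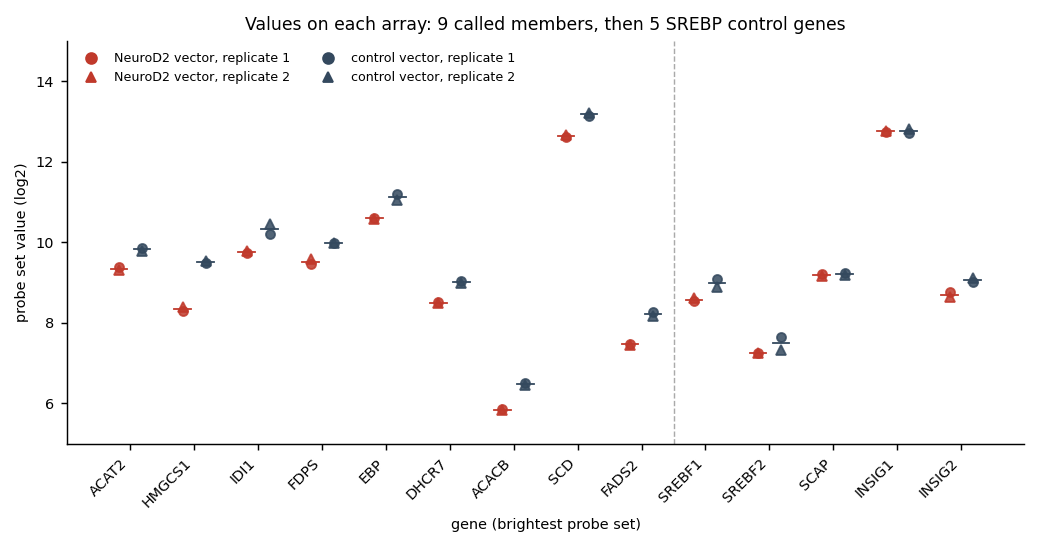
Log2 probe set value (vertical axis) of the 9 genes that fell and, right of the dashed line, of the 5 SREBP control genes, on each array: NeuroD2 vector left and control vector right within each gene, circles for replicate 1, triangles for replicate 2, and short lines for group means. In each of the 9 genes both NeuroD2 arrays lie below both control arrays, while SCAP and INSIG1 overlap.

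The genes of sterol handling outside synthesis did not pass either. On their brightest probe sets all 3 were lower on both NeuroD2 arrays, as were 26.6% of all genes. STARD4, a cytosolic sterol carrier, differed by -0.31 (adjusted p = 0.185), with 7.33 and 7.30 in NeuroD2 cells against 7.77 and 7.48 in control cells, and by -0.16 or -0.45 with control replicate 1 or 2 left out. Each of its 5 probe sets was lower, and the dimmest fell by 0.71 (adjusted p = 0.031 over all probe sets). MYLIP, a ubiquitin ligase that degrades lipoprotein receptors, differed by -0.21 (-0.34 or -0.09 with control replicate 1 or 2 left out). Its second brightest probe set differed by 0.10 and its dimmest by -0.36. NPC1, which exports cholesterol from lysosomes, differed by -0.07. Its groups were narrowly apart, with 10.487 on NeuroD2 replicate 2 and 10.503 on control replicate 2.

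In fatty acid synthesis, 1 of 5 genes fell, when 2.96% of all genes were called lower. ACACB, the acetyl-CoA carboxylase isoform tied to mitochondria, had 5.87 and 5.83 in NeuroD2 cells against 6.50 and 6.47 in control cells (difference -0.64, standard error 0.07, adjusted p = 0.015). Its other 2 probe sets differed by -0.10 and -0.03, and with the mean of the 3 probe sets it did not pass (-0.25, adjusted p = 0.104). ACACB lay below the median level of all genes, and the filter to genes at or above that level left it out. The gene of the cytosolic isoform, ACACA, which makes malonyl-CoA for synthesis, differed by 0.02 on its brightest probe set (interval -0.17 to 0.21), but its second probe set averaged 6.34 in NeuroD2 cells and 7.02 in control cells and fell by 0.68 (adjusted p = 0.018 over all probe sets).

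The other genes of fatty acid synthesis did not pass. ACSS2, which activates acetate, differed by -0.32 (adjusted p = 0.077), and ACLY, which cleaves citrate to acetyl-CoA, by -0.03. FASN, the fatty acid synthase, had 7.65 and 7.75 in NeuroD2 cells against 8.08 and 7.69 in control cells (difference -0.18, interval -0.52 to 0.16, adjusted p = 0.511). Its control replicates were 0.39 apart and the NeuroD2 values overlapped with them, and the FASN difference was 0.01 with control replicate 1 left out and -0.37 with control replicate 2 left out.

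Desaturases put double bonds into fatty acids, and 2 of the 5 genes fell, when 2.96% of all genes were called lower. SCD, which makes monounsaturated fatty acids, had 12.62 and 12.66 in NeuroD2 cells against 13.13 and 13.21 in control cells (difference -0.53, standard error 0.08, adjusted p = 0.024). Its other 3 probe sets fell further, by 0.95, 1.07 and 0.92 (adjusted p from 0.011 to 0.013 over all probe sets), and the mean of the 4 probe sets by 0.87. FADS2, the delta-6 desaturase of polyunsaturated fatty acids, had 7.48 and 7.45 in NeuroD2 cells against 8.27 and 8.16 in control cells (difference -0.75, standard error 0.08, adjusted p = 0.011). Of its 4 probe sets 3 fell, the third brightest being the exception at -0.29 (adjusted p = 0.398 over all probe sets), and that one represents FADS2 when probe sets of the s_at and x_at kinds are left out.

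The relatives of these desaturases did not pass. FADS1, the delta-5 desaturase, differed by -0.18 (interval -0.39 to 0.04; -0.10 or -0.25 with control replicate 1 or 2 left out), FADS3 by 0.10 (interval -0.13 to 0.33) and SCD5 by 0.06 (interval -0.15 to 0.26). Whether these genes differ from SCD and FADS2 was not tested. SCD5 was split between its 5 probe sets, of which the second brightest had 7.35 and 7.37 in NeuroD2 cells against 7.85 on both control arrays and fell by 0.49 (adjusted p = 0.037 over all probe sets), while the brightest and the third brightest differed by 0.06 and 0.10.

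The medians were -0.04 over 3 elongase genes and -0.01 over 4 genes of the acyl-CoA synthetase group. Of the elongase genes, ELOVL1 (-0.24), ELOVL5 (-0.04) and ELOVL6 (0.18) did not pass, and all 3 probe sets of ELOVL6, which extends palmitate, were higher in NeuroD2 cells. ELOVL1 differed by -0.09 or -0.39, and ELOVL6 by 0.11 or 0.25, with control replicate 1 or 2 left out. Of the acyl-CoA synthetase genes, ACSL1 and ACSL4 differed by -0.02 and -0.01 with overlapping groups. AACS, which activates acetoacetate for lipid synthesis, differed by -0.37 (adjusted p = 0.051). Its other probe sets differed by -0.17 to -0.04. With the mean of its 4 probe sets AACS did not pass (-0.17, adjusted p = 0.212). The lipin gene LPIN1, a phosphatidate phosphatase, differed by 0.13 (adjusted p = 0.374).

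Most genes agreed between their probe sets in direction. Among the 35 genes with more than 1 probe set, every probe set was lower in 24, every one higher in 1 and the directions were mixed in 10. Over all 111 probe sets of the 41 genes, 93 were lower, and 22 were called lower and 0 higher when the p-values were adjusted over all 44988 probe sets, of which 1.7% were called lower and 1.32% higher. Called probe sets belonged to 13 genes; in ACACA, IDI1, MSMO1, MVK, SCD5 and STARD4 the brightest probe set did not pass over all probe sets and another one did. When probe sets were averaged per gene, 15 of the 41 genes were called lower and 0 higher, beside 3.93% and 2.61% of all genes.

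**Figure D4:**
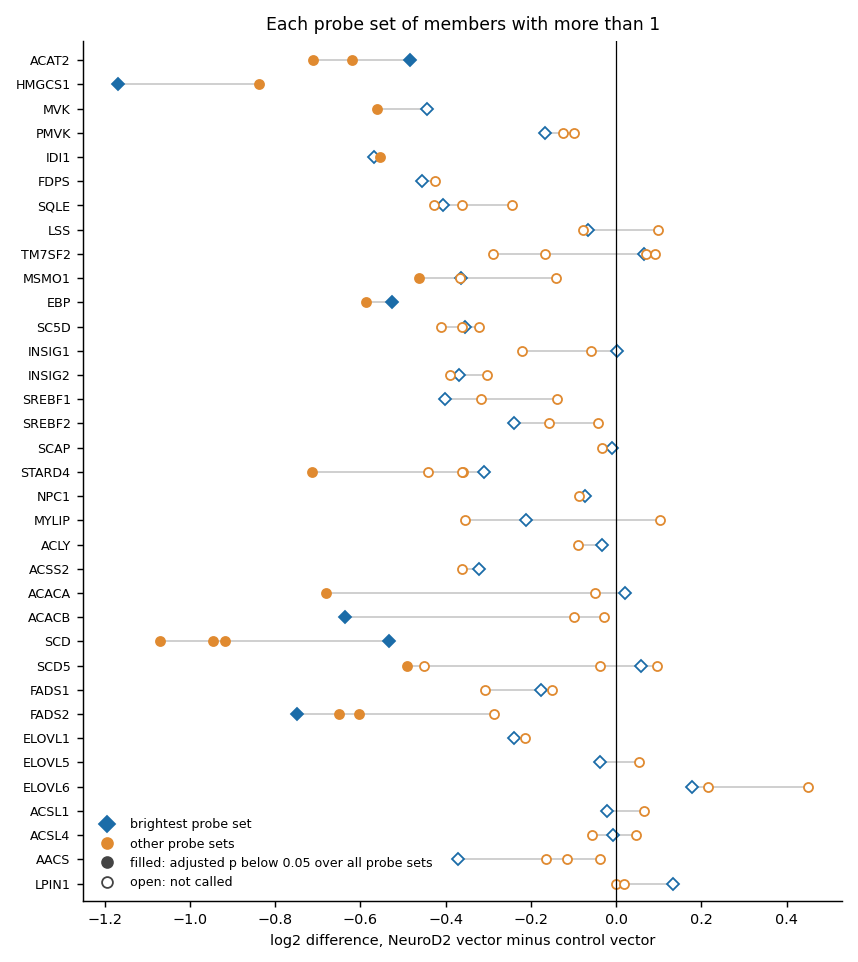
Log2 difference (NeuroD2 vector minus control vector) on every probe set of the 35 genes with more than 1, diamonds for the brightest and circles for the others, filled where the adjusted p over all probe sets was below 0.05. All 4 probe sets of SCD and all 3 of ACAT2 are filled, while ACACA and SCD5 each have 1 filled probe set that is not the brightest.

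Replicates of these genes differed more between the control arrays than between the NeuroD2 arrays. The median absolute gap was 0.04 between the NeuroD2 replicates and 0.11 between the control replicates, and over all genes these gaps were 0.07 and 0.12. In 8 of the 41 genes the control replicates were more than 0.25 apart, with control replicate 1 the higher in 6 of them (MVK, LSS, SREBF2, STARD4, FASN and ELOVL1). The largest gap between NeuroD2 replicates was 0.14, in INSIG2.

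Among 46 further genes of lipid handling, 41 were measured and 0 passed limma's test, when 2.96% of all genes were called lower and 1.81% higher. At an unadjusted p below 0.05, 10 of the 41 were lower and 3 higher, beside 12.5% and 9.27% of all genes. The median difference was -0.05 for 21 measured genes of isoprenoid branches, sterol esterification, efflux and uptake, and -0.08 for 20 genes of fatty acid elongation, glycerolipid synthesis and precursor supply. The lowest adjusted p-values were 0.054 for the sterol-regulated membrane protein gene TMEM97 (-0.36) and 0.056 for the lysosomal acid lipase gene LIPA (-0.34). Next came 0.057 for the mitochondrial citrate carrier gene SLC25A1 (-0.49), read on an x_at probe set with control replicates 0.25 apart. The mean of its 4 probe sets differed by -0.32 (adjusted p = 0.091). TMEM97, LIPA, SLC25A1 and the genes named next were picked after their values were seen. ABCA1, which exports cholesterol, differed by 0.21 (adjusted p = 0.213), and ABCG1 of the same list by 0.14 with overlapping groups. The site-1 protease gene MBTPS1, whose product makes the first cut in SREBP precursors, differed by -0.27 (adjusted p = 0.108).

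SREBPs bind sterol regulatory elements (SREs) beside sites of the partner factors NF-Y and Sp1, so the promoters of these genes were searched for their letters. RefSeq (GRCh38.p14) gave 58 promoter windows of 250 bases before a start site for 40 of the 44 genes. Windows of the same gene could overlap, so a site could be counted in several of them, as in ACLY and SC5D. The stretches below show the NF-Y boxes of 4 genes that fell, and those of SREBF2, with its SRE, and of INSIG1, which did not pass. Other windows of genes that fell held 0 NF-Y boxes, among them those of FADS2 and another window of HMGCS1. Capitals mark CCAAT or its reverse complement ATTGG, and in SREBF2 also the SRE. The stretches are HMGCS1 at chr5:43313503-43313572 (minus strand), FDPS at chr1:155308686-155308825, EBP at chrX:48521613-48521787, SCD at chr10:100346998-100347057, SREBF2 at chr22:41832965-41833009 and INSIG1 at chr7:155297703-155297722 (all plus strand), each upstream of the start site.
HMGCS1: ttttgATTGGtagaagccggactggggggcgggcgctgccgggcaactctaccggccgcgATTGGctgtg
FDPS: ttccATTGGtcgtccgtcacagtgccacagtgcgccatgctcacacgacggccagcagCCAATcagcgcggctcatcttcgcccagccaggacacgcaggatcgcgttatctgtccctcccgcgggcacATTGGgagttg
EBP: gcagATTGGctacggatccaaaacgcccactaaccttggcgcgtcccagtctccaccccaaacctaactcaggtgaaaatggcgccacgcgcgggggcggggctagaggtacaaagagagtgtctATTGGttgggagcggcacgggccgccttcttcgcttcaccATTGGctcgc
SCD: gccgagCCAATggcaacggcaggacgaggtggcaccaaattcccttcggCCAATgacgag
SREBF2: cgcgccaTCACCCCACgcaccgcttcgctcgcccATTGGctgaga
INSIG1: ctcccATTGGttgcggccgc

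The NF-Y box CCAAT, searched on both strands as all motifs were, was present in 32 of the 58 windows (55.2%), in 32.8% of the 20403 windows of genes measured on the arrays and in 32.0% of all 35116 windows. A full SRE of the form TCACNCCAC was in 2 windows (3.45%), of SREBF2 and ACSL1, beside 0.892% of the windows of measured genes. The shorter form TCACNCC, which lies inside the full one, was in 24.1% beside 13.8%, and the Sp1-type box GGGCGG in 82.8% beside 54.6%. The E-box CACGTG, to which SREBPs can also bind, was in 8.62% beside 7.38%, and CAGATG, an E-box of the kind that NeuroD factors bind, in 3.45% beside 10.0%. Windows of the genes that fell and of the measured genes that did not pass held the NF-Y box in like shares, 8 of 14 (57.1%) and 23 of 42 (54.8%). In the same order, the full SRE was in 0 of 14 and 2 of 42 windows and the shorter form in 2 of 14 and 11 of 42. The Sp1-type box was in 11 of 14 and 35 of 42, CACGTG in 0 of 14 and 5 of 42, and CAGATG in 1 of each. Whether these shares differ was not tested. A match is a description of these letters and shows no binding.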

How the data were processed

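The values are the authors' deposited table of 49395 probe sets on 4 arrays, taken as log2 from their range (2.65 to 14.3); array medians between 5.98 and 5.99 are those of normalized values. The sources used here do not give the software or how probes were corrected, normalized and summarised. Detection calls and scan dates were not used. The number of arrays limits the precision. Symbols came from the platform annotation: 44988 probe sets carried 1 symbol, 1832 several, 2473 none and 102 were controls.

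The 18132 genes were fitted with limma 3.58.1 (lmFit and eBayes, group as the only term, two-sided, 2 residual degrees of freedom) in R 4.3.3. P-values were adjusted by Benjamini-Hochberg over all genes, threshold 0.05. The script was tested on simulated data. An exact test of 2 against 2 cannot go below p = 0.333 and was not used. Values in every sample are given for genes past the threshold, for differences of at least 0.5 and for the 5 SREBP control genes, and otherwise where probe sets or control replicates differed, chosen after values were seen. The members and lists were chosen with earlier results of these data known. Alternatives were a replicate block, leaving out each array, quantile normalization, median centring, the mean of probe sets, every probe set, genes at or above the median level, a robust prior, an intensity trend, unadjusted p-values, and, chosen after seeing the data, no s_at or x_at probe sets.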

Additional observations from a re-analysis of the deposited data

Results flagged for a closer look

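The hybridisation spikes, which are not genes of the cells and enter no comparison, averaged 0.39 higher on the log2 scale on the NeuroD2 arrays than on the control arrays, and in all 18 probe sets the 2 groups were apart in that direction; a signal outside the genes that differs between groups was the reason to list it. Their part in the results was not tested.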

How the results depend on the processing

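The 9 genes that fell stayed below 0 under each alternative in which they were measured, but most calls were close to the threshold. The labels do not say that same-numbered arrays are paired, and their deviations from the group means correlated at 0.08 over genes. With the replicate number as a block, 335 genes passed over the whole table (1.1% lower, 0.745% higher) and 3 of the 41 fell (HMGCS1, ACACB and FADS2); the others of the 9 had adjusted p-values from 0.0515 (SCD) to 0.0728 (FDPS). An intensity trend gave 2056 genes and 17 of the 41 lower, a filter to genes at or above the median level 2081 and 15 of 38 measured, the mean of probe sets 15 of the 41, and an unadjusted p below 0.05 gave 3946 and 20. Leaving out 1 array gave 0 to 66 genes, 0 to 1 of the 41 lower, medians over the 41 genes from -0.34 to -0.16, and NEUROD2 differences from 1.97 to 2.42. Without s_at and x_at probe sets the NEUROD2 difference was -0.21 (adjusted p = 0.493) and 6 of the 36 genes still measured were lower (2.5% of all genes fitted there lower, 1.63% higher), with FDPS and SCD among those not measured; FADS2 was then -0.29 (adjusted p = 0.379). The cause was not tested. No setting called one of the 41 higher. Having 2 arrays a group limits what can be called.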
